A study of Mus musculus with 44 samples.

Results

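The 10 genes described here are markers of border macrophages: Mrc1, Cd163, Lyve1, Pf4, Stab1, F13a1, Cbr2, Ms4a7, Clec12a and Ms4a6c. They were chosen by symbol, matched to Ensembl identifiers with GENCODE release M21, and are 10 of the 50714 gene identifiers present in all 44 count files. RNA was sequenced from dorsal cortex and hippocampus of mice killed at postnatal day 28 or 29. All mice, controls included, carried 1 copy of CX3CR1-CreERT2, a Cre recombinase that tamoxifen switches on under the control of the Cx3cr1 gene, and 1 floxed copy of RPL10a-GFP, a ribosomal protein fused to a fluorescent tag (the series text gives fl/fl for the latter). Tamoxifen mice were injected with 100 mg/kg on postnatal days 15, 17 and 19; the sample labels give vehicle for the controls, and the series text calls them untreated. Input is RNA of the whole homogenate, and MG_TRAP is the RNA on tagged ribosomes that were pulled down from it (translating ribosome affinity purification, TRAP). SN_input is RNA of synaptosomes, a preparation of sealed nerve endings with whatever processes of other cells cling to them, and PeMP_TRAP, titled SN_TRAP in letters G to K, is the pull-down from that fraction. Each fraction had 3 control libraries (A to C) and 8 tamoxifen libraries, of which D to F belong with the controls to set 1 and G to K form set 2. Nothing in the labels says that a letter stands for a separate animal, so p-values measure the spread between these libraries, which may be technical.

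Border macrophages are the resident macrophages of the meninges, the perivascular spaces and the choroid plexus, and lie outside the brain parenchyma where microglia live. They take up proteins, lipids and debris from blood and cerebrospinal fluid through scavenger and lectin receptors. Like microglia they express Cx3cr1, so a Cre driven by that gene can also tag their ribosomes; the pull-down is a model of Cx3cr1-expressing cells and not of a single cell type. Mrc1 encodes the mannose receptor, Cd163 the scavenger receptor for haemoglobin and haptoglobin, Stab1 the scavenger receptor stabilin-1, Lyve1 a hyaluronan receptor and Clec12a an inhibitory C-type lectin. Pf4 encodes a chemokine also stored in platelets, F13a1 the catalytic subunit of coagulation factor XIII and Cbr2 a carbonyl reductase, while Ms4a7 and Ms4a6c encode membrane-spanning proteins of the MS4A family.

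In GENCODE M21 (GRCm38) all 10 are protein-coding genes: Mrc1 at chr2:14229392-14332057, Cd163 at chr6:124304656-124330527, Lyve1 at chr7:110850607-110863239, Pf4 at chr5:90772435-90773383 and Stab1 at chr14:31139013-31168641. F13a1 lies at chr13:36867178-37050244, Cbr2 at chr11:120729489-120732114, Ms4a7 at chr19:11321039-11336146, Clec12a at chr6:129342691-129365303 and Ms4a6c at chr19:11469366-11482192. Upstream sequence is shown for 4 of the 5 members that were higher in MG_TRAP than in Input (below), those with a match to a macrophage motif. Cbr2 had none. RefSeq (GRCm38.p6) held promoter entries for 9 of the 10 members, in 11 windows; each was searched over 250 bases before the start, on both strands, for AGGAAGT, a core of the site of the macrophage factor PU.1 (ACTTCCT on the opposite strand), and for TGCTGA, a core of the MAF site. PU.1 matches stood in windows of 4 members, Mrc1, Pf4, Ms4a6c and F13a1, and in 7.69% of the 32851 promoters searched. For F13a1 the window before the GENCODE start of the gene held no match. A MAF match stood in 1 member, Stab1, and in 16.1% of all promoters. Bases that GENCODE places inside the gene were left out, each sequence reads 5′ to 3′ on the gene's strand, and capitals mark the matches, PU.1 in the upper 3 and MAF in the last.
Mrc1, chr2:14229164-14229391, plus strand: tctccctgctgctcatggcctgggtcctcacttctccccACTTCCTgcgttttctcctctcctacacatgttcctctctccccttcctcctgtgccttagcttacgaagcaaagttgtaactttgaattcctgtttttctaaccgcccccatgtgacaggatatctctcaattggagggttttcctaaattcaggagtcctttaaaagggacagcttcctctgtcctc
Pf4, chr5:90772185-90772434, plus strand: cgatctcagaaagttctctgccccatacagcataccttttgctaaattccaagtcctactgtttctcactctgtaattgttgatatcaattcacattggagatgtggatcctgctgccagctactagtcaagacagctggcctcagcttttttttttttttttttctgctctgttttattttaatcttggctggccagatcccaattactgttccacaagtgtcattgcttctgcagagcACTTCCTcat
Ms4a6c, chr19:11469118-11469365, plus strand: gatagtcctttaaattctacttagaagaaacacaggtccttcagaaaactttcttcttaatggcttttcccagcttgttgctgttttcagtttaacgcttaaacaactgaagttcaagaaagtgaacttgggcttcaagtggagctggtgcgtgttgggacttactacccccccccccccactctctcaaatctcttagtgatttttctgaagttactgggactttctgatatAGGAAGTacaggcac
Stab1, chr14:31168642-31168891, minus strand: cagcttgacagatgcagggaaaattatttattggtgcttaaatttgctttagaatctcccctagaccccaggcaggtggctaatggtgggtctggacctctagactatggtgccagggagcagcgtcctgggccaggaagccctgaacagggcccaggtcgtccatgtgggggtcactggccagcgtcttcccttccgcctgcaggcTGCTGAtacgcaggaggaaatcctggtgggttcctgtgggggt
The match of Mrc1 began 211 bases before the RefSeq start, that of Pf4 10 bases and that of Ms4a6c 17 bases before it, while the MAF match of Stab1 began 43 bases before. A match is only a run of letters, and no binding was measured here.

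Libraries held 746616 to 35584637 assigned reads. CPM is the read count of a gene relative to its library's size, in edgeR's usual unit, with edgeR's TMM scaling wherever a level is given. The floor for a count of 0, set at 3 counts, lay at 0.109 to 4.05 CPM before TMM scaling, outside set 2 PeMP_TRAP. TMM scaling moves it, in tamoxifen PeMP_TRAP library F from 4.05 to 3.69 CPM. The labels mention no molecular identifiers, and the floors account for counting error alone, so they do not apply in set 2 PeMP_TRAP, where the non-zero member counts began at 981. PeMP_TRAP of set 2 detected 5372 to 7369 genes at 20442643 to 35584637 reads, fewer than the 20949 to 22449 genes of set 2 Input. In tamoxifen mice all 12 microglial markers tested were higher in MG_TRAP than in Input (adjusted p under 0.05 by edgeR's quasi-likelihood test, median log2 fold change 6.32) and all 12 higher in PeMP_TRAP than in SN_input (median 3.09). Tmem119, a microglial gene, differed by 6.78 and 3.80 in these comparisons (adjusted p = 3.53e-11 and 6.99e-06, edgeR). Rpl10a, the gene of the tagged protein, gave 2.33 (adjusted p = 0.0654) and 1.99 (adjusted p = 0.0363, edgeR), and its level differed between the sets, at 3.94 ± 2.84 CPM (SD, n = 3) in tamoxifen Input of set 1 and 93.1 ± 5.97 CPM (SD, n = 5) in that of set 2. Among controls, 2 pull-downs stood apart in the members: PeMP_TRAP library A held 6 of the 10 above 3 counts, against 0 and 1 in B and C, and MG_TRAP library C held 7, against 0 in A and B. Results that rest on PeMP_TRAP library A are given with and without it.

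Detection of the members differed between fractions and sets. In set 2 Input, 8 to 10 members per library passed 3 counts and 7 did so in all 5 libraries. In set 1 Input the same count was 1 to 2 in tamoxifen and 0 to 3 in control libraries. All 8 members other than Cd163 and Clec12a passed 3 counts in each of the 3 tamoxifen MG_TRAP libraries of set 1. Set 2 MG_TRAP held 5 to 9 members above 3 counts. In set 2 PeMP_TRAP the number was 1 to 4, and each of the 50 values was either 0 or at least 981 counts, with 12 above 0. The median non-zero count over all genes in these 5 libraries was 706.5 to 1029.5, so reads there were spread over few genes of any kind.

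**Figure D1:**
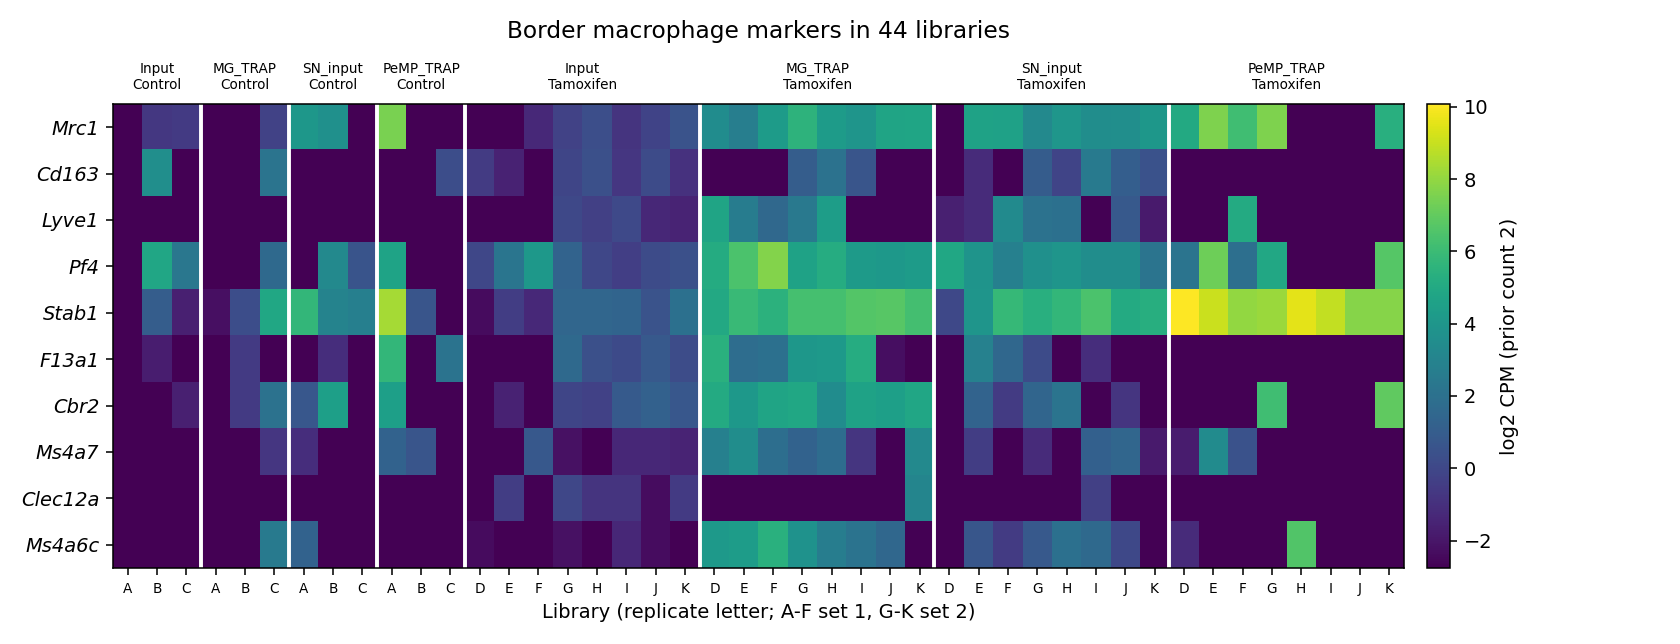
Level of each member (rows) in each of the 44 libraries (columns, by fraction and treatment), in log2 CPM (prior count 2); the darkest colour, -2.76, is a count of 0. Stab1 is the brightest row of tamoxifen PeMP_TRAP and is present in all 8 of its libraries, while Cd163, F13a1 and Clec12a are at 0 in all 8.

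The best-measured levels of unpurified tissue came from the 5 Input libraries of set 2, on the scale of CPM per kb of exon. Pf4 stood at 1.66 ± 0.97 and Cbr2 at 1.04 ± 0.488 (SD, n = 5 here and in the rest of the paragraph). Stab1 at 0.25 ± 0.0883, F13a1 at 0.228 ± 0.127, Lyve1 at 0.195 ± 0.112, Cd163 at 0.136 ± 0.0603 and Mrc1 at 0.134 ± 0.0556 followed. Clec12a had 0.0803 ± 0.0502, Ms4a6c 0.036 ± 0.0492 and Ms4a7 0.0349 ± 0.0252 CPM per kb. Neighbours in this order overlapped within 1 SD except at the step from Cbr2 to Stab1. For comparison, Cx3cr1 stood at 2.14 ± 0.54 and the microglial receptor gene P2ry12 at 7.96 ± 0.933 CPM per kb. In set 2 MG_TRAP the order began with Pf4 at 32.1 ± 10.7, Cbr2 at 17.4 ± 5.59, Stab1 at 8.54 ± 1.45 and Mrc1 at 4.26 ± 1.92 CPM per kb. There the steps from Cbr2 to Stab1 and from Stab1 to Mrc1 exceeded 1 SD on either side, and the remaining neighbours overlapped. Levels of Ms4a6c are uncertain, because 51.4% of the stretches of 50 bases in its transcripts also occur in transcripts of other genes and 53.1% of its exon bases overlap the gene BE692007. The matching share was 12.1% for Cbr2 and under 1% for each of the other 8 members.

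The first comparison asked whether the tagged ribosomes of tamoxifen mice carried the markers above their level in the homogenate. Of the 10 members, 9 passed the filter on low counts (Clec12a did not), and 5 of the 9 were higher in MG_TRAP than in Input: Stab1, Ms4a6c, Mrc1, Pf4 and Cbr2. Among all 15710 genes tested, 4.67% were higher, 2.15% lower and 6.82% changed in either direction. The median log2 fold change was 4.22 over the 9 members and -0.14 over all genes. Scaling moved the split of all genes: 733 were higher and 338 lower with TMM, 594 and 528 with DESeq2's size factors (median of all genes -0.66) and 650 and 432 with total counts (median -0.45). In bulk RNA, fewer cells of a type and less RNA per cell cannot be told apart. Markers of plasma and B cells moved with the members: 4 of 6 were higher in MG_TRAP than in Input (Igkc, Jchain, Ighm and Cd79b; median of the 6, 5.44). Their sum was 572.4 to 2048.7 CPM in MG_TRAP against 13 to 70.5 CPM in Input. Their part in the members' result was not tested.

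Stab1 lay between 31.5 and 107.2 CPM in the 8 MG_TRAP libraries (median 76.6) and between 0.0419 and 3.85 CPM in Input (median 1.89). The groups did not overlap, and its log2 fold change was 5.60 (SE 0.73, adjusted p = 3.47e-07, edgeR). It was the member that was called in each set alone, at 7.56 (SE 1.45, adjusted p = 0.00121, edgeR) in set 1 and 5.13 (SE 0.49, adjusted p = 5.18e-07, edgeR) in set 2.

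Mrc1 held 11, 6.57 and 19.6 CPM in MG_TRAP libraries D to F and 47, 19.4, 15.1, 26.6 and 27.5 CPM in G to K. In Input it was at 0, 0 and 0.265 CPM in D to F and at 0.408 to 1.32 CPM in G to K. No MG_TRAP library fell as low as any Input library, and the log2 fold change was 5.32 (SE 1.41, adjusted p = 0.0117, edgeR). Within a set the call was lost, at adjusted p = 0.0532 in set 1 and 0.14 in set 2.

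Pf4 ranged from 16.9 to 36 CPM in set 2 MG_TRAP and reached 35.3, 87.7 and 209 CPM in set 1, against 0.611 to 2.39 CPM and 0.838, 4.53 and 16.7 CPM in Input. Input library F at 16.7 CPM came close to the lowest MG_TRAP library but stayed below it. The log2 fold change was 4.19 (SE 1.25, adjusted p = 0.0309, edgeR). Since Pf4 is also a platelet gene, the 8 platelet markers were read beside it. Of these, 3 could be tested: Gp9 was higher in MG_TRAP than in Input (log2 fold change 7.43, adjusted p = 0.000938, edgeR), Gp5 lower (adjusted p = 0.00134, at 0 in MG_TRAP), and Itga2b gave -3.22 (adjusted p = 0.208). Together the 8 markers held 46.4 to 68.3 CPM in set 1 MG_TRAP against 2.56 to 14.8 CPM in Input, and 0.068 to 49.1 against 2.53 to 7.13 CPM in set 2. Ppbp, Gp5 and Tubb1 were at 0 in all 8 tamoxifen MG_TRAP libraries. The part of platelet RNA in the result was not tested.

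Cbr2 was at 34.1, 17 and 27 CPM in set 1 MG_TRAP and 10.9 to 29.6 CPM in set 2. Input held 0, 0.197 and 0 CPM in set 1 and 0.674 to 2.23 CPM in set 2, so the groups did not overlap. Its log2 fold change was 5.82 (SE 1.78, adjusted p = 0.036, edgeR). These 4 members, Mrc1, Pf4, Stab1 and Cbr2, were the ones whose MG_TRAP libraries all lay above all Input libraries, which held for 5.16% of all genes tested. The calls of Pf4 and Cbr2 were the fragile ones: each was lost in 12 of 24 alternatives. Pf4 lost it without MG_TRAP library F or without any of the Input libraries D, E, G, H, I, J and K, and Cbr2 without any of the 8 Input libraries.

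Ms4a6c had 18.1, 20.2 and 42.4 CPM in set 1 MG_TRAP and 13.5, 6.3, 4.17, 2.76 and 0 CPM in G to K. Input stayed at or below 0.245 CPM throughout, and in library K the MG_TRAP count was also 0, so the groups met there. The log2 fold change was 8.36 (SE 2.12, adjusted p = 0.00782, edgeR), with the caution on shared sequence given above. Monocytes also express MS4A genes, and the 6 monocyte markers held 0.0661 to 54.6 CPM in set 1 MG_TRAP, with Ly6c2 and Chil3 at 0, against 0.126 to 81.2 CPM in Input. In set 2 they held 1.57 to 7.96 CPM against 5.35 to 8.98 CPM. Of the 2 that could be tested, none was called (median log2 fold change 0.16).

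The other 4 tested members did not pass in this fit. With only the MG_TRAP and Input libraries in the fit, 8 of 9 members were higher, beside 14.1% of all genes (23.3% changed in either direction), and the member that did not pass was Cd163. Ms4a7 had a log2 fold change of 4.22 (adjusted p = 0.113, edgeR), F13a1 of 3.74 (adjusted p = 0.198, edgeR) and Lyve1 of 3.63 (adjusted p = 0.313, edgeR). Their MG_TRAP libraries were divided. F13a1 held 41.5, 3.4 and 3.85 CPM in D to F and 16, 18.2 and 35.9 CPM in G to I, but 0.0581 and 0 CPM in J and K. Lyve1 reached 26.3 CPM in D and 21 CPM in H and was at 0 in I, J and K, although Input of the same set held 0.211 to 0.897 CPM. Cd163 showed a log2 fold change of -0.37 (SE 1.10, adjusted p = 0.933, edgeR), with 0 counts in 5 of the 8 MG_TRAP libraries and 1.41 to 4.03 CPM in the other 3. Its sign turned in set 2 alone (0.98) and without Input library D (0.25). Clec12a, outside the test, was at 0 in 7 MG_TRAP libraries and at 8.33 CPM in library K, against 0.0495 to 0.823 CPM in set 2 Input.

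**Figure D2:**
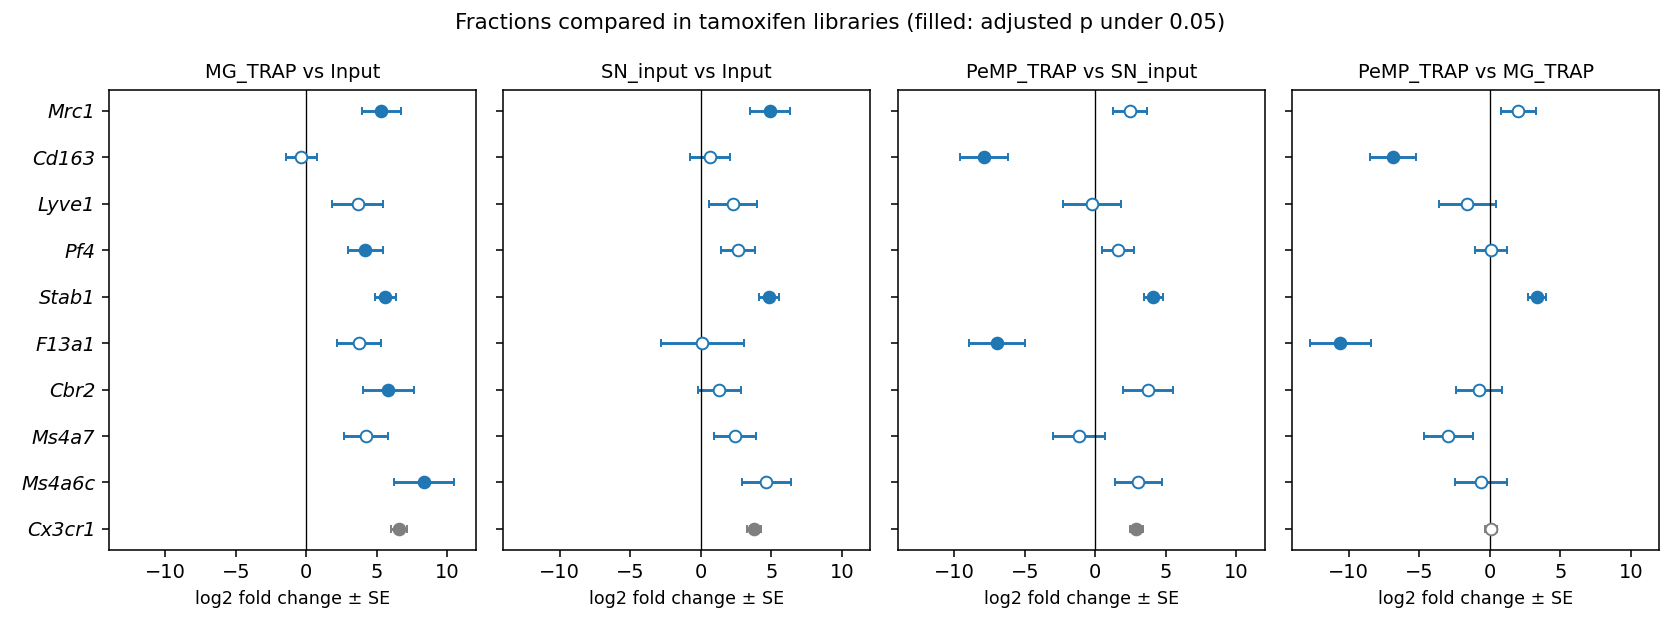
Log2 fold change ± SE from edgeR (horizontal axis) of the 9 members tested and of Cx3cr1 (grey) in 4 comparisons between fractions of tamoxifen libraries; filled points have an adjusted p under 0.05. Stab1 is filled on the right side in all 4 panels, and the estimates of Cd163 and F13a1 on the left rest on a PeMP_TRAP group at 0, so their size depends on the fit.

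The synaptosome fraction itself was then compared with the homogenate. In tamoxifen mice Stab1 and Mrc1 were higher in SN_input than in Input, 2 of the 9 members tested, where 2.08% of all genes were higher, 0.465% lower and 2.55% changed. With only these 2 groups in the fit 3 of 7 members were higher, Stab1, Mrc1 and Pf4, beside 11.7% of all genes (19% changed in either direction). No member had groups that did not overlap, against 2.03% of all genes with SN_input wholly above and 2.79% wholly below. Over all genes 327 were higher and 73 lower with TMM, 134 and 109 with DESeq2's size factors and 93 and 230 with total counts. Stab1 held 0.867, 15 and 57.6 CPM in SN_input libraries D to F and 33.9 to 87.3 CPM in G to K, a log2 difference of 4.85 (SE 0.70, adjusted p = 8.14e-06, edgeR). Library D, at 0.867 CPM, lay inside the Input range, and the other 7 lay above it. In set 1 alone the value was 6.63 (adjusted p = 0.0507, edgeR), and in set 2 alone it was 4.40 (adjusted p = 3.63e-06, edgeR). Mrc1 was at 0 in SN_input library D and at 9.52 to 24.6 CPM in the other 7, with a log2 fold change of 4.90 (SE 1.40, adjusted p = 0.0481, edgeR). That call was lost in 20 of 24 alternatives, among them the removal of any Input library and of any SN_input library but D. The remaining 7 members gave adjusted p-values of 0.195 or more. Markers of other cells were also higher in SN_input: 9 of 12 of microglia (median 2.76), 2 of 5 of meningeal fibroblasts (Col1a1 and Col1a2; median 3.53), 3 of 5 of oligodendrocytes (median 1.92) and 1 of 5 of astrocytes (median 1.68). The summed fibroblast markers were at 308.7 to 1883.9 CPM in SN_input and 17.4 to 99.5 CPM in Input. Their part in the result was not tested. Cx3cr1 differed by 3.75 on the log2 scale (SE 0.48, adjusted p = 7.57e-07, edgeR) in the same comparison.

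In the pull-down from that fraction Stab1 was higher still, and Cd163, F13a1 and Clec12a (not tested) had no read. PeMP_TRAP of tamoxifen mice held 1081.1, 530.3 and 253.4 CPM of Stab1 in D to F and 285.9, 752, 469.4, 211.7 and 216.5 CPM in G to K. The lowest of these exceeded the highest SN_input library, 87.3 CPM, and the highest MG_TRAP library, 107.2 CPM. Against SN_input Stab1 was higher by 4.10 on the log2 scale (SE 0.68, adjusted p = 6.08e-05, edgeR), and it passed in set 1 alone at 5.05 (adjusted p = 0.0234, edgeR) and in set 2 alone at 3.09 (adjusted p = 1.54e-05, edgeR). It was 1 member higher and 2 lower of the 9 tested, where 6.15% of all genes were higher and 26.1% lower. All 12 microglial markers were also higher in this comparison (median log2 fold change 3.09). Plasma and B cell markers again moved with Stab1, 5 of 6 higher and 1 (Cd79a) lower. Those summed to 199.4 to 3199.9 CPM in PeMP_TRAP against 15.8 to 393.7 CPM in SN_input. The part of these cells was not tested, nor was the cell type that the Stab1 reads came from. The groups of Stab1 did not overlap, as for 0.42% of the genes tested in that direction, and no member lay wholly below SN_input, as 4.09% of genes did.

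Against MG_TRAP, Stab1 was higher in PeMP_TRAP by 3.35 on the log2 scale (SE 0.66, adjusted p = 0.000424, edgeR), where 3.17% of all genes were higher and 22% lower. The number of higher genes moved with the scaling, from 498 with TMM to 287 with DESeq2's size factors and 195 with total counts, against 3454, 4168 and 4284 lower, and it was 140 against 1223 with only the compared groups. Set 1 alone gave 4.12 (adjusted p = 0.416, edgeR), in a fit that called 0% of all genes, and set 2 alone 2.36 (adjusted p = 0.000204, edgeR). Between the same groups Cx3cr1 gave 0.10 (SE 0.43, adjusted p = 0.913, edgeR) and P2ry12 was lower (-2.16, adjusted p = 0.000862, edgeR), and of the 12 microglial markers 1 was higher and 2 were lower. Stab1 was 1 of 7 genes, 0.0446% of those tested, whose PeMP_TRAP libraries all lay above all MG_TRAP libraries, while 2.2% of genes and no member lay wholly below. The other 6, looked up after this count was seen, were Chd4 and the mitochondrially encoded mt-Cytb, mt-Nd2, mt-Nd4, mt-Nd6 and mt-Tc.

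Cd163 and F13a1 were at 0 in all 8 tamoxifen PeMP_TRAP libraries, and the test called both lower than in SN_input (adjusted p = 0.000909 and 0.0072, edgeR) and lower than in MG_TRAP (adjusted p = 0.00282 and 0.000823, edgeR). No size is given for these differences. They were 2 of the 9 members tested, beside 26.1% of all genes lower than in SN_input and 22% lower than in MG_TRAP. Their number lies near those shares, so nothing is read from it. PeMP_TRAP of set 2 detected only 5372 to 7369 genes, and the share of all genes at 0 in all 8 libraries was not counted. In set 1 the floor of the shallowest PeMP_TRAP library was 3.69 CPM with TMM scaling, F13a1 in MG_TRAP exceeded it clearly in library D alone, and Cd163 was at 0 in MG_TRAP too. Set 1 alone called 0 genes against MG_TRAP (edgeR), with 1377 genes at an unadjusted p under 0.05. In set 2 no member had a count between 0 and 981 in PeMP_TRAP, so 3 counts are no floor for a 0 there and no bound is given. Over all 8 libraries the mean SN_input levels were low, 1.46 CPM for Cd163 and 1.42 CPM for F13a1. The F13a1 call against SN_input rested on few reads, since SN_input held it above 3 counts in 4 of 8 libraries, at 25 counts or fewer, and it was lost in set 1 alone (adjusted p = 0.196, edgeR).

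Of the other 7 members, Mrc1, Pf4, Cbr2 and Ms4a6c appeared in some libraries of set 2 PeMP_TRAP, and Lyve1, Ms4a7 and Clec12a were at 0 in all 5. Mrc1 held 194.8 CPM in G and 40.3 CPM in K, Pf4 31 and 101.5 CPM and Cbr2 70.8 and 123.4 CPM in the same 2 libraries, while all 3 were at 0 in H, I and J. Ms4a6c held 95.2 CPM in H and 0 in the other 4. Set 1 PeMP_TRAP had Mrc1 in all 3 libraries, at 32.7, 192 and 70.1 CPM, and Pf4 at 4.42, 153.7 and 3.69 CPM. Lyve1 was found in library F alone, at 34.4 CPM, and Cbr2 in none of the 3. With such a spread, Mrc1 gave adjusted p = 0.129 against SN_input and 0.262 against MG_TRAP, Pf4 0.285 and 0.977, and Cbr2 0.0998 and 0.814 (edgeR). Set 2 alone called 5 of 10 members against SN_input, where 43.6% of all genes were called, and 6 of 10 against MG_TRAP, where 42.6% were. Stab1 was the 1 member higher in either case, and the members' shares lay near those of all genes.

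**Figure D3:**
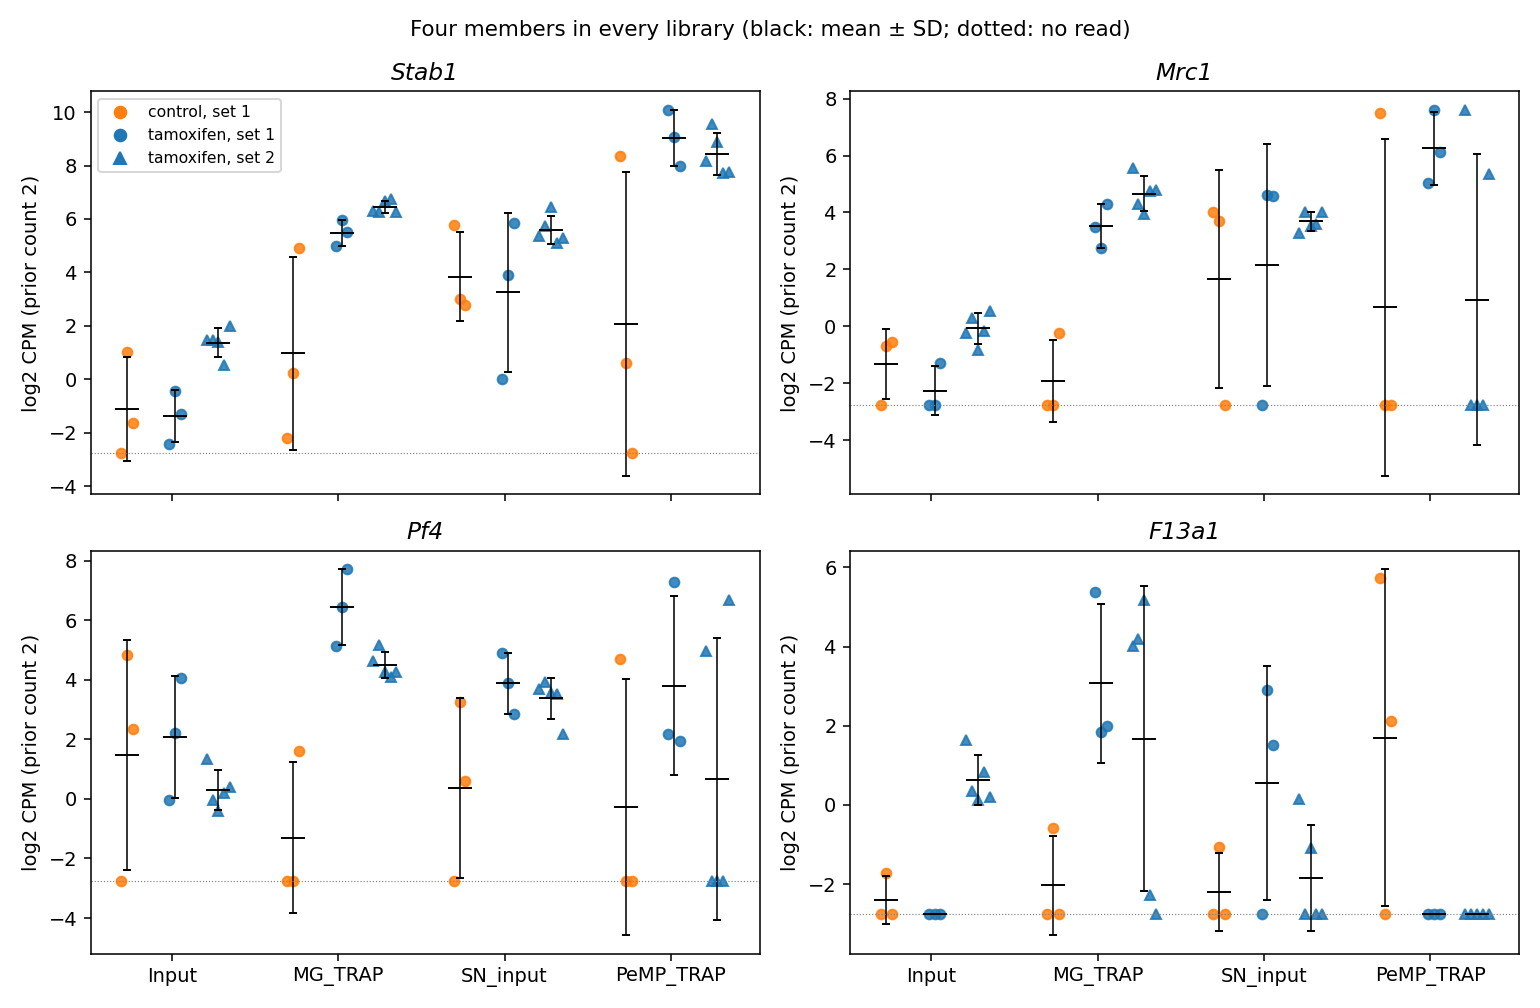
Log2 CPM (vertical axis, prior count 2) of Stab1, Mrc1, Pf4 and F13a1 in each library by fraction (horizontal axis); circles are set 1 (orange control, blue tamoxifen), triangles set 2, black marks the mean ± SD and the dotted line a count of 0. Tamoxifen PeMP_TRAP lies highest for Stab1, from 211.7 to 1081.1 CPM, spreads from 0 to 194.8 CPM for Mrc1 and from 0 to 153.7 CPM for Pf4, and is at 0 for F13a1.

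Control mice give the background of the pull-down where no tamoxifen was given. That background held microglial RNA: the 12 microglial markers summed to 1549.4 to 4878.2 CPM in control MG_TRAP and 268.9 to 404.1 CPM in control Input, ranges that do not overlap (median log2 fold change 3.71, none called by edgeR). In MG_TRAP, 8 of the 10 members, all but Cd163 and Clec12a, lay higher in each of the 3 tamoxifen libraries than in each of the 3 controls, where 13.1% of all genes did so. Pf4, for example, held 35.3, 87.7 and 209 CPM with tamoxifen and 0, 0 and 2.92 CPM in controls. Mrc1 held 6.57 to 19.6 CPM with tamoxifen and 0, 0 and 0.691 CPM in controls. Markers of other cells were higher in the same libraries, with ranges that did not overlap: the 12 microglial markers summed to 14410.5 to 28117.7 CPM with tamoxifen, the plasma and B cell markers to 596.0 to 2048.7 against 93.5 to 255.7 CPM, and the platelet markers to 46.4 to 68.3 against 0 to 18.3 CPM. Their part in the result was not tested. Stab1 came closest, with 31.5 CPM in the lowest tamoxifen library and 29.7 CPM in control library C. Lyve1 had no read in any control library of any fraction, and held 26.3, 6.12 and 2.8 CPM in tamoxifen MG_TRAP libraries D to F. Even so, edgeR called none of the 8 members tested and 0% of the 14771 genes. At an unadjusted p under 0.05 there were 4 members and 15.9% of all genes. DESeq2 called 1 member, Pf4, and 5.67% of all genes, and put Pf4 higher by 7.24 on the log2 scale (SE 1.97, adjusted p = 0.00956).

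In PeMP_TRAP the control group was split. Control library A held 181.6 CPM of Mrc1, 324.2 of Stab1, 52.9 of F13a1, 25.8 of Pf4 and 22.1 of Cbr2 with 3.22 CPM of Cx3cr1, whereas libraries B and C held at most 4.2 CPM of any member and 307.1 and 11.5 CPM of Cx3cr1. EdgeR called none of the 8 members tested between tamoxifen and control PeMP_TRAP, where 11.1% of all genes were called, 5.56% in each direction. The number of genes called ranged from 23 with only these 2 groups in the fit, through 1643 here, to 4077 with DESeq2. At an unadjusted p under 0.05 there were 3 members and 32% of all genes. DESeq2 called F13a1 and Cbr2 lower (adjusted p = 0.0241 and 2.88e-12), 2 of 8 members, where it called 27.6% of all genes. Both calls rest on control library A: Cbr2 had 48, 0 and 0 counts in the 3 controls and F13a1 115, 0 and 12. Without library A, in a DESeq2 fit added after these results were seen, neither passed (adjusted p = 0.384 for F13a1 and 1 for Cbr2). Without control library A, edgeR called 2 members higher, Stab1 by 10.99 (SE 2.61, adjusted p = 0.00919) and Mrc1 by 12.72 (SE 4.07, adjusted p = 0.0402), against 2 remaining controls at or near 0, and 10.1% of all genes. DESeq2 without it called these 2 and Pf4 higher (adjusted p = 0.00093 for Mrc1, 0.00301 for Pf4 and 2.91e-06 for Stab1) and 25.1% of all genes. Library A was set apart by the members' own levels, so calls of members without it are no evidence of a difference. In control PeMP_TRAP the 6 endothelial markers held 470.2 to 2001.2 CPM and the 5 mural cell markers 687.0 to 6022.8 CPM, all of the former and 4 of the latter above 3 counts in some library, with Kcnj8 at 0. Tamoxifen libraries of the same set held 5.37 to 646.6 and 3.69 to 19.5 CPM of these. Their part in the result was not tested.

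The inputs of tamoxifen and control mice gave no call. EdgeR called no member and 0% of all genes in Input or SN_input. At an unadjusted p under 0.05 there were 0 members and 3.06% of all genes in Input, and 1 member and 3.35% in SN_input. DESeq2 called no member in either, and 0.325% and 0.433% of all genes. Lyve1 was the member whose SN_input groups did not overlap, at 0.173, 0.293 and 10.3 CPM with tamoxifen and 0 in the 3 controls, as for 3.56% of genes in that direction. The lower 2 values are 1 read each, below the floor of 3 counts, so in 2 of the 3 libraries the separation rests on a single read. Within control mice edgeR called no member, and 0.0135% of all genes in MG_TRAP against Input and 0% in PeMP_TRAP against SN_input and in SN_input against Input. At an unadjusted p under 0.05 there were 2 members and 7.45% of all genes in the first, 1 member and 17.4% in the second, and 4 of 8 members and 6.84% in the third. DESeq2 called F13a1 in PeMP_TRAP against SN_input (adjusted p = 0.0276), where it called 8.44% of all genes, and in the fit without control library A no member. In the other 2 comparisons DESeq2 called no member and 1.52% and 0.9% of all genes. In SN_input against Input of controls, Stab1 did not overlap, with 54.2, 7.85 and 6.7 CPM against 0, 1.9 and 0.176 CPM, as for 9.36% of genes.

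The difference of enrichments between tamoxifen and control mice was tested directly. For MG_TRAP over Input edgeR called no member and 0% of all genes, with 3 members and 9.19% of all genes at an unadjusted p under 0.05. DESeq2 called no member and 1.41% of all genes. For PeMP_TRAP over SN_input edgeR called no member, where 1.24% of all genes were called, 0.914% higher and 0.325% lower. At an unadjusted p under 0.05 there were 1 member and 19.8% of all genes. DESeq2 called F13a1 and Cbr2 lower (adjusted p = 0.0103 and 8.29e-05) and 12.4% of all genes. Without PeMP_TRAP control library A neither passed in DESeq2 (adjusted p = 0.138 and 0.697), and it called Stab1 and Mrc1 higher (adjusted p = 0.000646 and 0.0282) with 13.7% of all genes. EdgeR without that library called Stab1 higher (10.86, SE 2.80, adjusted p = 0.0382) with 2.59% of all genes. Since that library was set apart by the members' own levels, the calls without it are no evidence of a difference.

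The members were next set against microglial transcripts within the same library, on CPM per kb, as the summed level of the 10 members in percent of that of the 12 microglial markers. In set 2 this share was 2.36% to 5.04% in Input (median 3.83%) and 1.2% to 1.9% in MG_TRAP (median 1.62%), and these ranges did not overlap. In set 1 of tamoxifen mice the shares overlapped, at 0.843% to 21% in Input and 1.05% to 7.38% in MG_TRAP. PeMP_TRAP spread from 0.631% to 6.36% in set 2, where Stab1 alone made up 8.06% to 100.0% of the members' level. Stab1 in percent of Cx3cr1 had medians of 11.5% in Input, 5.92% in MG_TRAP, 19.8% in SN_input and 55% in PeMP_TRAP of set 2. Those of PeMP_TRAP ranged from 16% to 172.9% and overlapped SN_input at 13.5% to 33.3%, but not MG_TRAP at 5.35% to 15.8%. In set 1 of tamoxifen mice the medians were lower, at 1.9% in Input, 1.84% in MG_TRAP, 7.18% in SN_input and 14.6% in PeMP_TRAP. There PeMP_TRAP ranged from 7.67% to 81.9%. Ratios of this kind carry no test here.

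**Figure D4:**
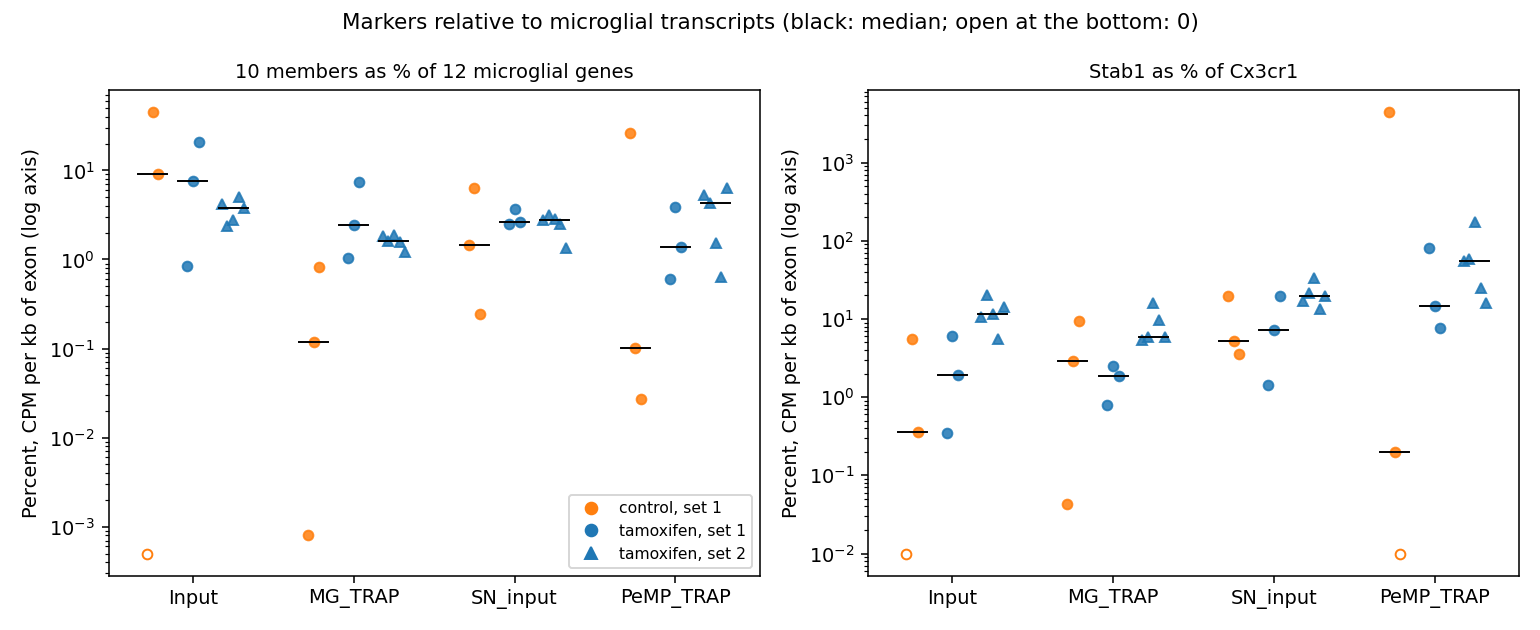
Left, the summed level of the 10 members in percent of the 12 microglial markers; right, Stab1 in percent of Cx3cr1, both from CPM per kb of exon on log axes, per library and fraction, with black lines at medians and open points for 0. The members' share of set 2 is lower in MG_TRAP (median 1.62%) than in Input (median 3.83%), and Stab1 relative to Cx3cr1 has its highest tamoxifen medians in PeMP_TRAP.

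A further 22 genes of border macrophages were read from a separate list, of which 17 could be tested in tamoxifen mice. In MG_TRAP 4 of 17 were higher than in Input and none lower, beside 4.67% and 2.15% of all genes: the chemokine gene Ccl24 (log2 fold change 7.24), the MS4A genes Ms4a6d (6.43) and Ms4a6b (5.38), and Maf (3.40), which encodes a macrophage transcription factor. The median of the 17 was 3.77, against -0.14 over all genes. In PeMP_TRAP against SN_input 2 of 17 were higher, Ms4a6d (4.14) and Maf (2.35), beside 6.15% of all genes. In the same comparison 3 were lower, beside 26.1% of all genes: Cd38, which encodes an enzyme that consumes NAD, and the lectin genes Clec10a and Clec4n. Against MG_TRAP none was higher and 4 were lower, beside 3.17% and 22% of all genes: Clec10a, Clec4n, Cd38 and the endocytic adaptor gene Dab2 (-5.87). Cd38, Clec10a and Clec4n were at 0 in all 8 tamoxifen PeMP_TRAP libraries, so no size is given for them, and nothing is read from the numbers of lower genes, which lie near or below the share of all genes. No gene of the list was called in SN_input against Input. Between tamoxifen and control mice 3 of 13 tested were higher in PeMP_TRAP, Ms4a6b (8.26), Ms4a6d (7.50) and Maf (5.25), beside 5.56% of all genes, and none in MG_TRAP. Of the 12 microglial markers, 6 were higher in the same PeMP_TRAP comparison (median 3.49), and their part in the result was not tested.

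Across the 32 tamoxifen libraries, with each set centred, members differed in how closely they followed Cx3cr1. Pearson's r with Cx3cr1 was 0.89 for Stab1, 0.65 for Mrc1, 0.45 for Pf4, 0.41 for Cbr2, 0.15 for F13a1 and -0.31 for Cd163. The gene most like Stab1 was Wnk1 (r = 0.93), and the nearest to Mrc1 was Tmem37 (r = 0.87). Mrc1 and Pf4 went together at r = 0.73 and Pf4 and Cbr2 at 0.70. Stab1 had r = 0.84 with Tmem119. With other members it had 0.58 for Mrc1, 0.32 for Ms4a6c, 0.23 for Ms4a7, 0.21 for Pf4, 0.13 for Cbr2, 0.10 for Lyve1, -0.06 for F13a1 and -0.38 for Cd163. The profile of the members' mean was most like those of Hfe (0.83), Myo1f (0.80), Tmem37 (0.80), Mfng (0.79) and Lair1 (0.79). For the remaining members the nearest genes were Slc2a1 for Cd163 (0.81), Smim11 for Pf4 (0.81), Hfe for Cbr2 (0.78), Sash3 for Ms4a7 (0.74), March1 for F13a1 (0.67), Vwa5a for Ms4a6c (0.67) and Tmem123 for Lyve1 (0.62). These correlations describe 32 libraries that share fractions and depth, and values at 0 weigh in them.

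The authors' deposited table for set 1 lists 8 of the members. Its headings name no treatment for Input or SN_Input, so these may include control libraries. The edgeR fits set beside it below used tamoxifen libraries only, so the groups may be unlike. It gives, for MG_TRAP of tamoxifen mice against Input, a log2 fold change of 6.78 for Stab1 (adjusted p = 1.66e-05) and 6.32 for Mrc1 (adjusted p = 0.00343). The authors' deposited table puts Lyve1 at 9.44 (adjusted p = 0.00107), F13a1 at 9.04 (adjusted p = 0.00074) and Pf4 at 3.69 (adjusted p = 0.0812). Ms4a6c, Cbr2 and Ms4a7 also pass in the authors' deposited table (adjusted p = 0.000522, 0.00233 and 0.0321), which makes 7 of 8. EdgeR on the tamoxifen libraries of set 1 alone, with tamoxifen Input as the reference, called Stab1 only (2.54% of all genes). For SN_input against Input the authors' deposited table gives Mrc1 12.22 (adjusted p = 0.0177) and Stab1 11.27 (adjusted p = 0.00152), with the other 6 at 0.146 or more. EdgeR on the tamoxifen libraries of set 1 alone called no member (0.0463% of all genes). In set 1 edgeR gave Mrc1 7.90 with tamoxifen and 4.81 in controls, and Stab1 6.63 and 5.03. The deposited values exceed all of these, so the groups and scale of that column are not known and the 2 are not comparable. For PeMP_TRAP against SN_input the authors' deposited table gives Stab1 4.97 (adjusted p = 0.00164), Lyve1 5.59 (adjusted p = 0.0358) and Mrc1 3.08 (adjusted p = 0.112). Against tamoxifen SN_input only, Lyve1 did not pass in set 1 alone (2.09, adjusted p = 0.582, edgeR) or in both sets (adjusted p = 0.951, edgeR). Lyve1 was at 0 in all 3 control SN_input libraries, and whether the deposited SN_Input includes these is not stated.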

How the data were processed

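Bulk RNA from 44 libraries was compared. Counts of reads per gene were deposited by the authors as HTSeq files; FastQC 0.11.7, Trimmomatic 0.38, Bowtie2 2.3.5, STAR 2.7.0d and HTSeq 0.9.1 are named in the submitters' processing notes, without roles, and genome build, annotation and strand setting are not given in the sources used here. The authors' deposited table of set 1 gives log2 fold changes and adjusted p-values, and 24 of its per-sample columns were not used. Lines naming no gene (27.0 to 93.4% of reads) were left out, as were identifiers not shared by all files (0.0232 to 0.795% of assigned reads). In R 4.3.3, edgeR 4.0.16 fitted quasi-likelihood models with TMM scaling after filterByExpr (minimum count 10), 1 to the 32 tamoxifen libraries with the set as a covariate (15710 genes) and 1 to the 24 libraries of set 1 (14771 genes), so that all groups share an estimate of the spread. P-values were adjusted by Benjamini-Hochberg over all genes tested, with a threshold of 0.05. An SE is the log2 fold change divided by the root of F. DESeq2 1.42.0, other scalings, no filter, the compared groups alone, each set alone, a replicate block and the omission of each library were alternatives. DESeq2 without PeMP_TRAP control library A was added after the results were seen. The labels do not say whether a letter is the same animal across fractions, and the main fits left pairing out. In no comparison did every same-letter pair correlate above 0.1, which cannot show that the libraries are unpaired. Same-letter pairs of MG_TRAP and Input in tamoxifen mice ran from 0.015 to 0.231. All 10 members are named in the text, with Cx3cr1, Tmem119, P2ry12 and Rpl10a as references, called genes of a further border macrophage list (up to 3 from either end) and the genes of highest correlation. Members and lists were chosen with earlier results of these data known. Plots used Python 3.11.15 and matplotlib 3.10.9.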

Additional observations from a re-analysis of the deposited data

Results flagged for a closer look

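Among 37 combinations of a member and a tamoxifen fraction, 9 held a library far from the other 7 by Dixon's criterion. Chance meets this criterion in about 1 of 20 groups of normally distributed values. That rate does not hold where many values are tied at a count of 0, as in several groups here, so the 9 are not read as an excess. All values are log2 CPM, where -2.76 is a count of 0. SN_input library D was the lowest for both Mrc1 (-2.76, next 3.27) and Stab1 (0.02, next 3.92). MG_TRAP library K was the lowest for Ms4a6c (-2.76, next 1.54) and the highest for Clec12a (3.08 from 245 counts, with the other 7 at 0). In PeMP_TRAP, Ms4a6c was highest in library H (6.58, 2026 counts) and Lyve1 in library F (5.11, 28 counts). The 3 remaining values rest on few reads: Ms4a7 in Input library F (0.80, 6 counts), Ms4a6c in Input library I (-1.35, 6 counts) and Clec12a in SN_input library I (-0.34, 8 counts). No cause of these values was tested.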

How the results depend on the processing

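The 13 called results of members kept direction and call in 255 of 307 alternatives, lost the call in 52 and reversed in none. Below, brackets give the share or number of all genes called by the same rule, which is not given for fits without each library. Of MG_TRAP over Input, 5 members were called (6.82%). There were 3 with DESeq2's size factors (1122 of 15710 genes), 8 with only the compared groups (23.3%) and 1 in set 1 alone (2.54%). Set 2 alone had 1 (6.5%), and fits without each library in turn 3 to 5. PeMP_TRAP over SN_input had 3 (32.3%), and 1 with only the compared groups (19.4%, with 5 members tested there, without Cd163 and F13a1). It had 1 in set 1 alone (2.87%), 5 in set 2 alone (43.6%) and 3 to 4 without each library. PeMP_TRAP over MG_TRAP had 3 (25.2%), and 0 in set 1 alone (0%), 6 in set 2 alone (42.6%) and 3 to 4 without each library. In these 2 PeMP_TRAP comparisons 3 of 9 members lie near the share of all genes, so their number says nothing about the members. SN_input over Input had 2 (2.55%), and 1 each with DESeq2's size factors (243 of 15710 genes), with total counts (323 of 15710 genes) and in set 2 alone (3.89%). It had 0 in set 1 alone (0.0463%) and 1 to 2 without each library. With the letter as a replicate block the numbers were 4, 3, 3 and 1 in this order, beside 1212, 5281, 3532 and 434 of 15710 genes. They were 0 in every control or interaction comparison that could be blocked. Same-letter correlations ran from -0.018 to 0.231 in tamoxifen mice. Tamoxifen against control called 0 members in MG_TRAP (0%) and 1 with DESeq2 (5.67%). In PeMP_TRAP it called 0 (11.1%), 2 with DESeq2 (27.6%), 3 with DESeq2 without control library A (25.1%, chosen after seeing the data) and 0 to 2 without each library. PeMP_TRAP over SN_input called 0 in controls (0%) and 1 with DESeq2 (8.44%). As an interaction it called 0 (1.24%), 2 with DESeq2 (12.4%), 2 others with DESeq2 without that library (13.7%) and 0 to 1 without each library. Cd163 in MG_TRAP over Input reversed from -0.37 to 0.98 in set 2 alone and ranged from -1.08 to 0.25 without each library, 0.25 being without Input library D. Over all genes MG_TRAP against Input gave 1071 calls, 1753 with DESeq2, 2626 with no filter and 3576 with only the compared groups. Tamoxifen against control in PeMP_TRAP gave 1643, and 4077 with DESeq2 and 23 with only the compared groups. The causes were not tested. Depth limits a count of 0 to 3 counts at best, 0.109 to 4.05 CPM before TMM scaling. It sets no limit in set 2 PeMP_TRAP, where non-zero member counts began at 981.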
